A study of Mus musculus with 6 samples.

Results

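The 29 genes described here make cholesterol or control its level in the cell. They were chosen by name, with earlier results of these data known, and matched to the Ensembl identifiers of the deposited table, which lists 49671 genes. They comprise 18 enzymes that build sterols from acetyl-CoA, 6 genes that sense or carry sterols and control the SREBP transcription factors, and 5 genes of the LXR receptors and of cholesterol efflux. All 29 were found, and 28 passed the filter on low counts that left 12242 genes for testing. The exception was Nr1h3.

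The cells were mouse OT-I CD8 T cells, which carry a transgenic receptor for the ovalbumin peptide SIINFEKL, taken from spleen. Genotypes labelled CD73 KO and WT were compared, with 3 libraries each. CD73, encoded by Nt5e, is a surface enzyme that turns AMP into adenosine. Cells of both genotypes had the same culture, with peptide at 10 ng/mL added daily over 5 days, IL-7 and IL-15 at 5 ng/mL each and replating after 48 hours, which is meant to bring on exhaustion, a state of reduced function after lasting stimulation. Live cells were sorted before RNA extraction. The labels give neither the age of the mice, nor how the CD73 allele was made, nor whether libraries that share a genotype stem from different mice or cultures, so the p-values measure the spread between these libraries, which may be technical.

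Cells make cholesterol through the mevalonate pathway, which joins acetyl-CoA units into isoprenoids, couples these into squalene, closes squalene into lanosterol and trims lanosterol to cholesterol. When membrane sterol falls, SCAP carries the SREBP proteins to the Golgi, where proteases free the part that enters the nucleus and switches on the enzymes. When sterol is plentiful, INSIG proteins hold SCAP back in the endoplasmic reticulum, and oxysterols activate the LXR receptors, which switch on the efflux pumps ABCA1 and ABCG1. CD8 T cells raise sterol synthesis when they are activated and build new membrane.

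Library totals ran from 6934150 to 19382950 counts, the highest in CD73 KO replicate 1 and the lowest in WT replicate 3. Levels are given as CPM, which corrects counts for library size with TMM factors, and one count equals 0.0532 to 0.142 CPM. The 18 enzymes had 121 to 5743 counts per library, the lowest being for Tm7sf2. T cell markers were high, the 4 listed ones summing to 2366 to 2693 CPM in CD73 KO, against 2102 to 2339 CPM in WT. Of 7 myeloid markers, Lyz2, Csf1r, C1qa, Spi1 and Fcgr1 had 0 counts in all 6 libraries, and the list summed to at most 0.426 CPM in any library. The 3 B cell markers summed to at most 0.213 CPM, with Ms4a1 at 0 counts in all 6. The stromal list summed to 67.0 to 105 CPM in CD73 KO, against 47.1 to 63.7 CPM in WT, nearly all of it Pecam1, which T cells can also express, and its part in the results was not tested. Nt5e, the targeted gene, stood at 3.67, 8.45 and 8.47 CPM in CD73 KO, against 22.6, 5.22 and 37.4 CPM in the libraries labelled WT. The library labelled WT replicate 2 thus lay within the CD73 KO range. Counts, medians and the differences of some genes are given without it too. With all 6 libraries, the log2 fold change of Nt5e in CD73 KO against WT was -1.67 ± 0.72 (SE). Its adjusted p was 0.534 in edgeR, so the targeted gene itself did not pass 0.05.

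The promoters of sterol genes are shown first, because SREBP proteins bind them together with the factor NF-Y, whose site is CCAAT. A sterol response element was searched as TCACNCCAC and the NF-Y site as CCAAT, each on both strands in the 250 bases before the start. RefSeq on GRCm38.p6 gave a window for 24 of the 29 genes. Fdps, Fdft1, Sqle, Stard4 and Abcg1 had none in the table used. CCAAT stood in the window of 19 of the 24 genes (79.2%), against 37.49% of 27025 genes with a window. Among the 15 enzymes with a window 14 held it, the exception being Acat2, and among the 9 other genes 5 did, with Abca1, Nr1h2, Nr1h3 and Scap lacking it. TCACNCCAC was found in 1 of the 24, Hmgcs1, against 1.22% of genes. These matches describe letters, and say nothing of whether a factor binds. Only these strings within 250 bases were searched, so a missing match does not show that a gene lacks a sterol element. Windows of 4 genes that the results turn on follow, 5′ to 3′ along the gene's strand, with matches to CCAAT (or its reverse, ATTGG) and to the sterol element in capitals. None of these stretches held an annotated exon of GENCODE M21.
Hmgcs1 (chr13:119690101-119690350, plus strand): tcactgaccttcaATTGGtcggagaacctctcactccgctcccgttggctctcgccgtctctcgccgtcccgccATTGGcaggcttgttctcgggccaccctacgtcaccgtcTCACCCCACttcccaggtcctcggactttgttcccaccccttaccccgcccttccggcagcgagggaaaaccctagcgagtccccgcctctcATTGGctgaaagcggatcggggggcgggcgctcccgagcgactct
Mvk (chr5:114444089-114444268, plus strand): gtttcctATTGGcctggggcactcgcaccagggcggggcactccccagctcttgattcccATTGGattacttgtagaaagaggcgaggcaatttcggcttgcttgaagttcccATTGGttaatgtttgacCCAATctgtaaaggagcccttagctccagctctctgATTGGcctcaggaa
Mvd (chr8:122443423-122443572, minus strand): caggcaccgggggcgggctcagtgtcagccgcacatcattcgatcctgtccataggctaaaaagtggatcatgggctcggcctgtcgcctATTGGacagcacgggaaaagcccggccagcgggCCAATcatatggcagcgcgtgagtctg
Insig1 (chr5:28071187-28071362, plus strand): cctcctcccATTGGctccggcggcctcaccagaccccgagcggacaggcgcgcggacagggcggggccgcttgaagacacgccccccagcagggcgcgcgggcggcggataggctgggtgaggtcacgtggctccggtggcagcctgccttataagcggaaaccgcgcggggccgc
In Hmgcs1 the match to the sterol element began 137 bases before the start, and none of the gene's 3 CCAAT matches overlapped it. Mvk held 4 reversed matches and 1 forward match in 180 bases. Mvd held 1 of each in the 150 bases before its start, and Insig1 held a single match 216 bases before its start.

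Levels of different genes were compared per length, as RPKM over the merged exons of GENCODE M21, which include rare exons and can understate a gene with many. Srebf2, which encodes the SREBP that drives sterol synthesis, had the highest mean of the 29 genes, 68.4 ± 7.0 RPKM (SD over 6 libraries). Cyp51, the lanosterol demethylase, followed at 65.5 ± 9.63 RPKM and Hmgcs1, the HMG-CoA synthase, at 63.3 ± 14.0 RPKM. These 3 do not differ beyond their spread. Insig1 came next with 44.7 ± 10.7 RPKM, and Srebf1, which encodes the SREBP better known for fatty acid synthesis, after it with 36.9 ± 3.14 RPKM. The enzymes spanned 3.30 RPKM for Tm7sf2, a sterol reductase, to 65.5 RPKM for Cyp51. Of the LXR and efflux genes, Nr1h2 ranked 9 of 29 with 24.1 ± 3.96 RPKM, and the other 4 were low. Abcg1 stood at 2.56 ± 1.11 RPKM, Mylip at 1.26 ± 0.562, Nr1h3 at 0.318 ± 0.146 and Abca1 at 0.105 ± 0.0523.

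**Figure D1:**
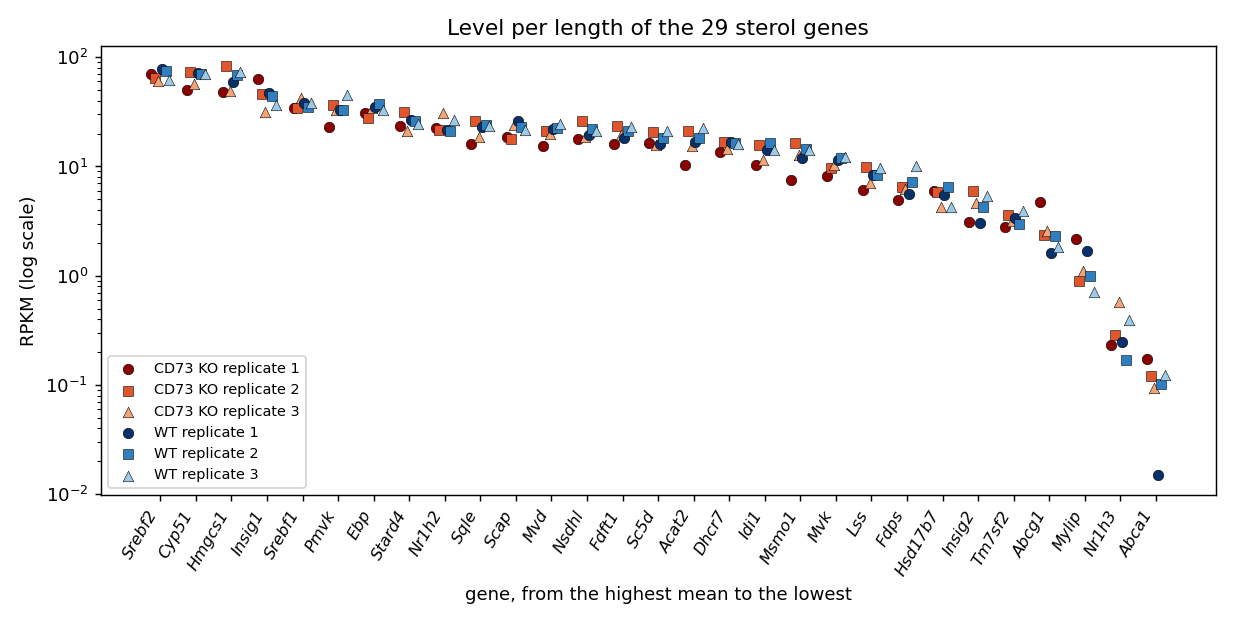
RPKM of each of the 29 sterol genes in each of the 6 libraries, on a log scale, genes ordered by their mean. Srebf2, Cyp51 and Hmgcs1 stand at the top, between 47.6 and 82.5 RPKM, and Nr1h3 and Abca1 stay below 0.6 RPKM in all 6 libraries.

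Regulators with a close relative were compared with it. Per length, Srebf2 exceeded Srebf1 by 1.45 to 2.15 times in every library, Insig1 exceeded Insig2 by 6.81 to 20.1 times, and Nr1h2 (LXR beta) exceeded Nr1h3 (LXR alpha) by 54.3 to 125 times. Nr1h3, the form best known from macrophages and liver, had 11, 11 and 15 counts in CD73 KO, against 8, 4 and 7 in WT, and did not pass the filter on low counts. Fitted without that filter, its log2 fold change was 0.41 ± 0.54 (adjusted p = 0.804 in edgeR). Of the efflux pumps, Abcg1 exceeded Abca1 by 14.8 to 27.4 times in 5 libraries, and no ratio is given for WT replicate 1, where Abca1 had 2 counts.

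Between genotypes, 0 of the 28 tested sterol genes changed by edgeR's quasi-likelihood test (smallest adjusted p = 0.454, for Abcg1), against 0.0572% of all tested genes. At an unadjusted p under 0.05 there were 2 of 28, Mvk lower and Abcg1 higher in CD73 KO, while 9.64% of all tested genes reached this level, 3.89% lower and 5.75% higher. DESeq2 called 0 of the 28, and limma-voom 0. Leaving out the library labelled WT replicate 2 gave a smallest adjusted p of 0.999 among the 28, with log2 fold changes of -0.34 for Mvk, -0.31 for Mvd, 0.16 for Insig1 and 0.90 for Abcg1. All 18 enzymes had a fitted log2 fold change below 0 (17 of 18 with scaling by library size alone), where 47.7% of all tested genes did, with a median of -0.19 against 0.01 over all tested genes. The genes were chosen with earlier results of these data known, so their shared direction is not an independent test. The sizes were small, from -0.38 for Fdps to -0.01 for Nsdhl. The 95% intervals of all 18 lay within a 2-fold change in either direction, so larger differences lie outside these intervals. The same held for 10127 of all 12242 tested genes. Within 1.5-fold lay the intervals of 10 of 18 enzymes and of 7049 of the 12242 genes. In bulk RNA, fewer cells with a high level and less RNA per cell cannot be told apart.

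**Figure D2:**
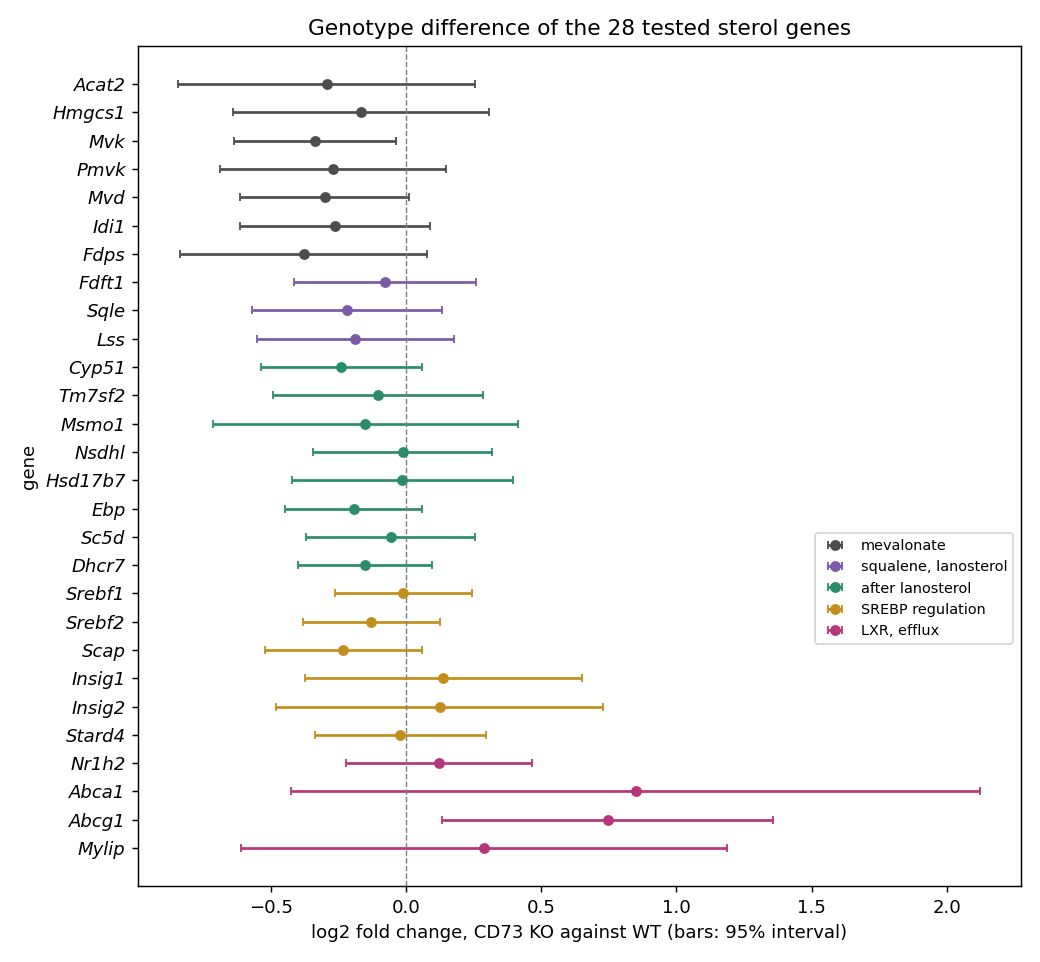
Log2 fold change of CD73 KO against WT for the 28 tested sterol genes, with 95% intervals from edgeR's fit, colored by role. The 18 enzymes lie between -0.38 and -0.01, and the intervals of Mvk and Abcg1 alone among the 28 leave out 0.

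The CD73 KO libraries differed among themselves by more than the genotypes did. CD73 KO replicate 1 was the lowest of the 6 libraries for 15 of the 18 enzymes, where it was lowest for 21.5% of all tested genes. CD73 KO replicate 2 was the highest of the 6 for 7 of 18, against 18.8% of all tested genes. WT replicate 3 was the highest for another 7, and its share over all tested genes was not computed. For 13 of the 18 enzymes the WT mean lay between the lowest and the highest CD73 KO library, against 59.3% of all tested genes. The median ratio of CD73 KO replicate 2 to replicate 1 over the enzymes was 1.46, against 1.01 over all tested genes. Between the highest and the lowest library, the CD73 KO range was wider than the WT range for 15 of the 18 enzymes, and for 61.4% of the tested genes with counts in every library. The CD73 KO range was also wider for 5 of the 6 regulators and carriers and 3 of the 4 tested LXR and efflux genes. The enzymes summed to 1205, 1797 and 1367 CPM in CD73 KO and to 1555, 1670 and 1745 CPM in WT. The CD73 KO mean of 1457 ± 306 CPM (SD, n = 3) and the WT mean of 1657 ± 95.8 CPM (SD, n = 3) thus differ by less than the spread between the CD73 KO libraries. Without CD73 KO replicate 1, the median of the enzymes was -0.09, 15 of 18 were below 0 and 0 had an unadjusted p under 0.05. Without CD73 KO replicate 2 the median was -0.40, all 18 were below 0 and 9 had an unadjusted p under 0.05, with 0 past the adjusted threshold. An unadjusted p under 0.05 in edgeR was reached by 1027 of 12223 tested genes without CD73 KO replicate 1. Without CD73 KO replicate 2 the count was 1115 of 12229. Leaving out WT replicate 2 gave a median of -0.20 with 16 of 18 below 0, and leaving out CD73 KO replicate 3 or WT replicate 3 gave 15 of 18. CD73 KO replicate 1 was also the most deeply sequenced library, and the part of depth was not tested.

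**Figure D3:**
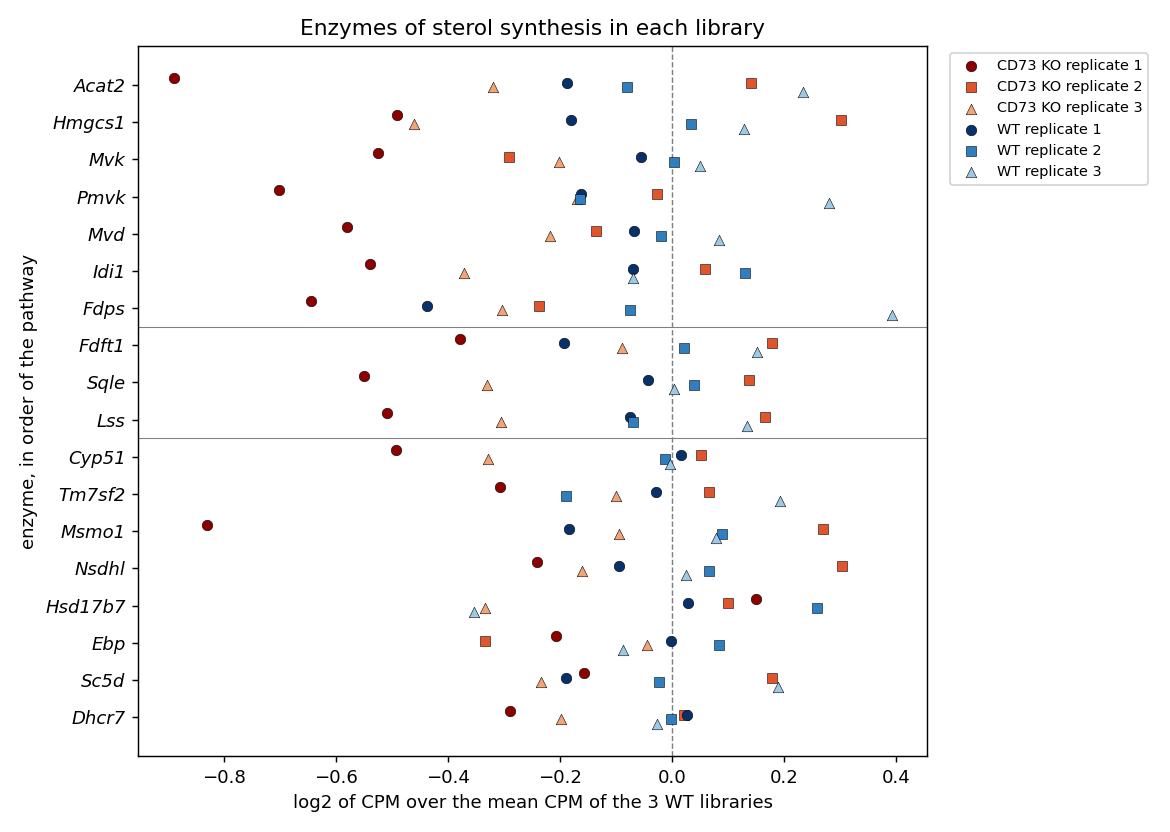
Log2 of each enzyme's CPM over its mean in the 3 WT libraries, for the 6 libraries, with enzymes in pathway order. CD73 KO replicate 1 is the leftmost point for 15 of 18 enzymes, and CD73 KO replicate 2 lies to the right of 0 for most of the later steps.

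The first steps, from acetyl-CoA to the isoprenoids, had the median farthest from 0 among the 3 groups of enzymes, -0.29 over 7, and CD73 KO replicate 1 was the lowest library for all 7. Mvk, the kinase that phosphorylates mevalonate, had 22.1, 25.9 and 27.6 CPM in CD73 KO, against 30.6, 31.8 and 32.9 CPM in WT. Every CD73 KO library lay below every WT library. Its log2 fold change was -0.33 ± 0.14 (SE), with an adjusted p of 0.492 in edgeR. Mvd, the decarboxylase that ends the mevalonate steps, had 28.7, 39.0 and 36.9 CPM in CD73 KO, against 40.9, 42.3 and 45.4 CPM in WT, again without overlap (log2 fold change -0.30 ± 0.14, adjusted p = 0.525 in edgeR, -0.18 without CD73 KO replicate 1). These were the 2 of 18 enzymes whose CD73 KO libraries all lay below the WT libraries, a pattern found in 7.60% of all tested genes. Hmgcs1 makes HMG-CoA and holds the match to the sterol element shown above. It had 218.8, 379.2 and 223.6 CPM in CD73 KO, against 271.6, 315.1 and 336.4 CPM in WT. CD73 KO replicate 2 was the highest of the 6 libraries and the other CD73 KO libraries were the lowest, so the groups overlapped (log2 fold change -0.17 ± 0.21, adjusted p = 0.823 in edgeR). It was -0.48 without CD73 KO replicate 2, -0.04 without CD73 KO replicate 1 or 3, -0.26 without WT replicate 1 and -0.10 without WT replicate 3.

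Among the other early enzymes, Acat2, the thiolase that joins acetyl-CoA units, varied 2.18-fold between libraries, from 26.4 CPM in CD73 KO replicate 1 to 57.5 CPM in WT replicate 3. Pmvk, the next kinase after Mvk, and Idi1, the isomerase, had log2 fold changes of -0.27 ± 0.19 and -0.26 ± 0.16. Fdps, which makes farnesyl diphosphate, differed by -0.38 ± 0.21 on the log2 scale (adjusted p = 0.583 in edgeR), with 20.6, 27.3 and 26.1 CPM in CD73 KO, against 23.8, 30.6 and 42.3 CPM in WT. WT replicate 3 stood highest and WT replicate 1 lay within the CD73 KO range. The log2 fold change was -0.14 without the former, -0.56 without the latter and -0.42 without WT replicate 2. A retrocopy of Fdps, Gm3571, is 98.87% identical to it and had 118 to 240 counts per library, so reads of the pair may have been exchanged by the counting. A second copy, Gm5873, is 96.7% identical and had 13 to 32 counts. Fdps also shares 1124 exon bases with Gm43738 on the same strand, which had at most 1 count in any library, so reads there cannot be assigned to either gene. The sum of Fdps and Gm3571 was 39.2 ± 6.19 CPM in CD73 KO, against 46.3 ± 12.2 CPM in WT (SD, n = 3). Idi1 and Insig1 have retrocopies too, which had at most 17 counts in any library.

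The middle steps turn farnesyl diphosphate into lanosterol. Sqle, the squalene epoxidase and a rate-limiting step, had 88.8, 143.2 and 103.5 CPM in CD73 KO, against 126.3, 133.7 and 130.4 CPM in WT. The WT libraries lay close together, within 3.70 CPM SD, and the CD73 KO libraries fell on both sides of them (log2 fold change -0.22 ± 0.16, adjusted p = 0.680 in edgeR). Omitting CD73 KO replicate 1 moved this to -0.08, and omitting replicate 2 to -0.44. Lss, the cyclase, and Fdft1, the squalene synthase, showed the same order of CD73 KO libraries, with replicate 1 lowest and replicate 2 highest of all 6 (log2 fold changes -0.19 ± 0.16 and -0.08 ± 0.15). The end of Fdft1 shares 774 exon bases with Ctsb on the opposite strand, a gene with 1367 to 4143 counts per library, so its level is uncertain where the counting ignored strand. Ctsb itself had a log2 fold change of -0.01 ± 0.10.

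After lanosterol, differences were smaller, with a median of -0.13 over 8 enzymes. Cyp51 had 222.3, 324.3 and 249.2 CPM in CD73 KO, against 316.4, 310.2 and 312.4 CPM in WT (log2 fold change -0.24 ± 0.14, adjusted p = 0.594 in edgeR), again with CD73 KO replicate 2 above and the other CD73 KO libraries below all WT libraries. Leaving out CD73 KO replicate 1 gave -0.13, and leaving out replicate 2 gave -0.41. Msmo1, the sterol demethylation oxidase, ranged most within CD73 KO, from 46.6 CPM in replicate 1 to 100.03 CPM in replicate 2, against 73.0 to 88.2 CPM in WT. Hsd17b7, Ebp and Sc5d were the 3 enzymes whose lowest library was not CD73 KO replicate 1. Hsd17b7 and Nsdhl, which act in removing the methyl groups, and Sc5d, a desaturase, had log2 fold changes of -0.01, -0.01 and -0.06. Dhcr7, which completes cholesterol, Ebp, the isomerase, and Tm7sf2 had -0.15, -0.19 and -0.10. The order of libraries was thus not shared by every late enzyme. Tm7sf2 shares 532 exon bases with Vps51 on the same strand, so reads there cannot be assigned to either gene.

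**Figure D4:**
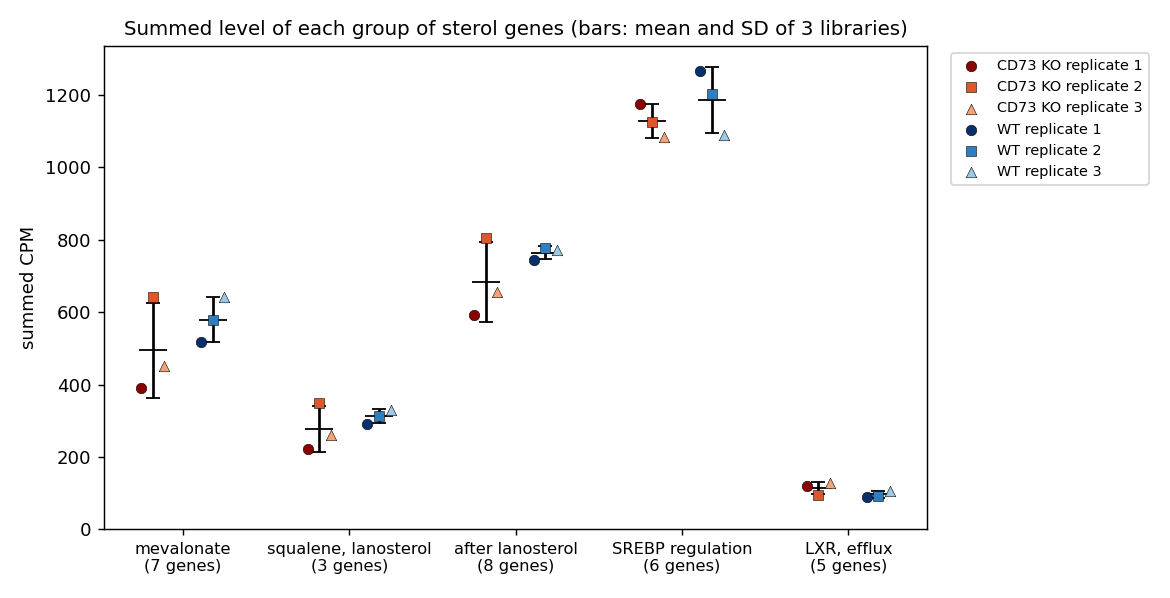
Summed CPM of each group of sterol genes in each library, with the mean and SD of the 3 libraries of a genotype. For all 3 groups of enzymes the CD73 KO libraries spread more widely than the WT libraries, and CD73 KO replicate 1 is lowest.

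Among the CD73 KO libraries, replicate 1 was lowest and replicate 2 highest for 14 of the 18 enzymes, against 16.8% of all tested genes. Of the 6 regulators and carriers 1 had that order, Insig2, which is near the share over all tested genes. Srebf2 had 506.7, 465.0 and 437.2 CPM in CD73 KO, against 556.7, 538.4 and 443.5 CPM in WT, overlapping between genotypes (log2 fold change -0.13 ± 0.11, adjusted p = 0.740 in edgeR). Srebf1 had 193.8, 191.3 and 237.1 CPM in CD73 KO, against 214.1, 196.2 and 215.7 CPM in WT, with a log2 fold change of -0.01 ± 0.11. Scap, the escort protein, had 138.6, 132.4 and 176.9 CPM in CD73 KO, against 192.2, 171.9 and 160.6 CPM in WT (log2 fold change -0.23 ± 0.13). CD73 KO replicate 3 lay among the WT libraries for Scap. CD73 KO replicate 1 was the lowest library for 0 of the 6 regulators and carriers, against 21.5% of all tested genes. The counts measure transcripts and do not show how much SREBP protein was cut or reached the nucleus.

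Insig1 is itself switched on by SREBP, yet its libraries were ordered differently from those of the enzymes. It had 194.7, 141.8 and 98.2 CPM in CD73 KO, against 145.2, 136.8 and 113.0 CPM in WT (log2 fold change 0.14 ± 0.22, adjusted p = 0.869 in edgeR). CD73 KO replicate 1, lowest for Hmgcs1 and Sqle, was highest for Insig1. Per length, Insig1 over Hmgcs1 was 1.32 in CD73 KO replicate 1 and 0.499 to 0.794 in the other 5 libraries. Insig2, which is not a target of SREBP in the same way, had 10.9, 20.9 and 16.0 CPM in CD73 KO, against 10.6, 14.9 and 18.7 CPM in WT, with replicate 1 low in both genotypes. Stard4, a soluble sterol carrier, had the enzymes' order within CD73 KO in part, with 130.7, 175.4 and 117.9 CPM, and 137.5 to 148.1 CPM in WT (log2 fold change -0.02 ± 0.14).

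All 4 tested LXR and efflux genes had a fitted log2 fold change above 0, as did 52.3% of all tested genes. Their median was 0.52 against 0.01 over all tested genes. Without CD73 KO replicate 1 the median was 0.27 and 3 of 4 were above 0, Mylip being at -0.23. Without CD73 KO replicate 3 it was 0.65 with 3 of 4 above 0, Nr1h2 being at -0.06, and without WT replicate 2 it was 0.54 with all 4 above 0. Abcg1, which exports cholesterol to HDL particles, had 34.3, 17.1 and 18.6 CPM in CD73 KO, against 11.8, 16.8 and 13.4 CPM in WT. Each CD73 KO library lay above each WT library, though CD73 KO replicate 2 exceeded WT replicate 2 by less than 1 CPM. It was the 1 of 28 sterol genes with this pattern, which 7.59% of all tested genes showed. Its log2 fold change was 0.75 ± 0.27, with an adjusted p of 0.454 in edgeR. The CD73 KO mean was 23.3 ± 9.54 CPM, with replicate 1 the highest library, against 14.0 ± 2.56 CPM in WT (SD, n = 3). Without CD73 KO replicate 1 the log2 fold change of Abcg1 was 0.34, the lowest of the fits that left out a library. The 1 setting that called it was edgeR without a filter on low counts (adjusted p = 0.00676), which called 298 genes in all. Abca1 had 34, 19 and 10 counts in CD73 KO and 2, 10 and 9 in WT (log2 fold change 0.85 ± 0.58, adjusted p = 0.657 in edgeR), and its 95% interval reached from -0.42 to 2.12. Mylip, a ubiquitin ligase that LXR induces, was highest in CD73 KO replicate 1 as well, at 7.08 CPM, with 2.28 to 5.44 CPM in the other 5 libraries. Nr1h2 had 75.6, 73.0 and 104.6 CPM in CD73 KO, against 72.5, 71.0 and 88.8 CPM in WT, replicate 3 being highest in both genotypes.

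**Figure D5:**
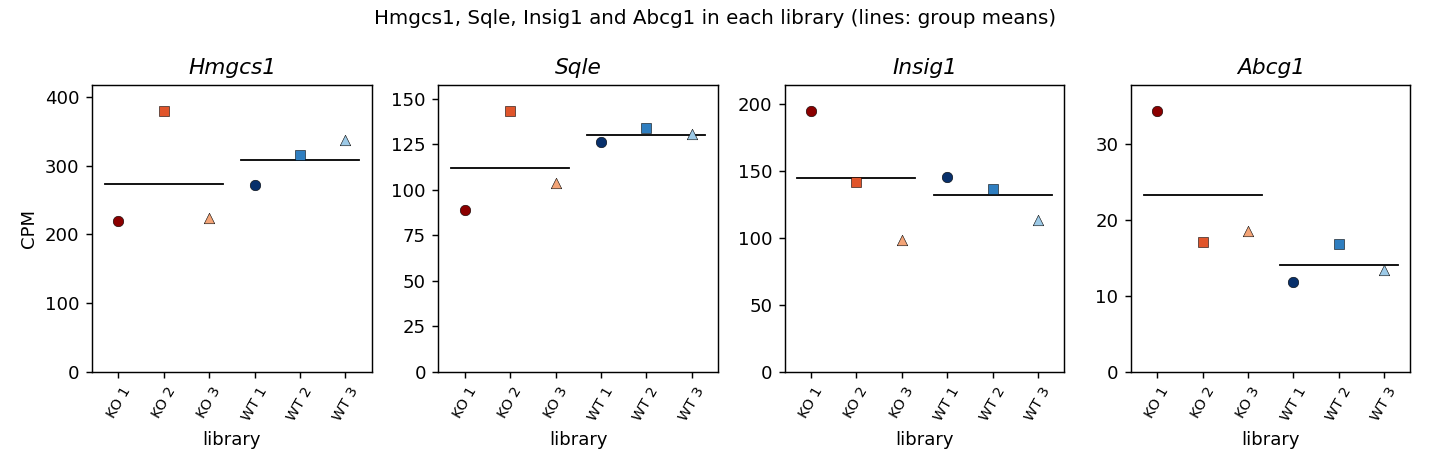
CPM of Hmgcs1, Sqle, Insig1 and Abcg1 in each library, with lines at the group means. CD73 KO replicate 1 is the lowest library for Hmgcs1 and Sqle (218.8 and 88.8 CPM) and the highest for Insig1 and Abcg1 (194.7 and 34.3 CPM).

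Other genes of the pathway were read from 6 lists, with 62 of 67 genes tested. By edgeR 0 of the 62 changed (smallest adjusted p = 0.400), and 7 had an unadjusted p under 0.05, 5 lower and 2 higher in CD73 KO, against 9.64% of all tested genes. Of 5 genes supplying acetyl-CoA, 4 were below 0 with a median of -0.22, Acat1, the mitochondrial thiolase, being at 99.2 ± 5.51 CPM in CD73 KO, against 117 ± 7.72 CPM in WT (SD, n = 3). Of 10 tested lipogenic targets of SREBP1, 8 were below 0 with a median of -0.09. Fasn, the fatty acid synthase, had 413.9, 403.1 and 417.2 CPM in CD73 KO, against 523.8, 488.4 and 454.2 CPM in WT, without overlap (log2 fold change -0.25 ± 0.10, adjusted p = 0.477 in edgeR). CD73 KO replicate 1 did not stand apart for Fasn. It was the lowest library for 2 of these 10 genes, against 21.5% of all tested genes. CD73 KO replicate 3 was the lowest for 6, and its share over all tested genes was not computed.

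The branch from farnesyl diphosphate to prenyl groups, dolichol and ubiquinone had 8 of 14 genes below 0, with Pdss1, which makes the ubiquinone side chain, at 14.4 ± 0.886 CPM in CD73 KO, against 18.2 ± 1.56 CPM in WT (SD, n = 3). Of 11 genes that cut SREBP or degrade sterol-regulated proteins, 7 were below 0 with a median of -0.01. Erlin1, of the degradation machinery, and Vcp, the ATPase that pulls proteins from the membrane, had log2 fold changes of -0.32 ± 0.14 and -0.22 ± 0.09. The site proteases Mbtps1 and Mbtps2 had 0.02 ± 0.11 and 0.16 ± 0.16.

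On the efflux side, 6 of 9 tested LXR partners and targets were above 0, with a median of 0.06. Smpdl3a, a phosphodiesterase gene that LXR induces, had 77.7, 54.1 and 49.6 CPM in CD73 KO, against 41.8, 47.5 and 37.7 CPM in WT, without overlap (log2 fold change 0.51 ± 0.17, adjusted p = 0.400 in edgeR). As with Abcg1, CD73 KO replicate 1 was the highest library. Rxra, the partner of the LXR receptors, lay the other way with a log2 fold change of -0.97 ± 0.45 (adjusted p = 0.525 in edgeR), farther from 0 than any other gene of the list. It had 2.50, 5.02 and 2.31 CPM in CD73 KO, against 4.43, 4.15 and 11.2 CPM in WT, and WT replicate 3 stood apart. The oxysterol enzymes Ch25h, Cyp27a1, Cyp7b1 and Hsd3b7 were too low to be tested. Of 13 genes of sterol esters and transport, 9 were above 0 with a median of 0.10, and Gramd1b, which moves cholesterol from the plasma membrane to the endoplasmic reticulum, had 224.7, 236.1 and 233.1 CPM in CD73 KO, against 193.2, 172.5 and 216.6 CPM in WT (log2 fold change 0.25 ± 0.11, adjusted p = 0.508 in edgeR).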

How the data were processed

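RNA of 6 libraries was sequenced, per the labels with a stranded library kit. The authors deposited raw counts per gene and library under Ensembl identifiers. Per the submitters' processing notes, fastp, HISAT2 and featureCounts were used with mm10; versions, annotation release and strand setting were not given in the sources used here. Groups came from the sample titles and columns from the sample descriptions.

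Low genes were removed with filterByExpr (minimum count 10, minimum total 15), and genotypes were compared in R 4.3.3 with the quasi-likelihood F-test of edgeR 4.0.16 (TMM factors, robust estimates, legacy fit). Benjamini-Hochberg adjustment covered all 12242 tested genes, and an adjusted p under 0.05 counted as changed. Standard errors equal the log2 fold change over the square root of F, and 95% intervals use the degrees of freedom of the fit. The procedure was tested on simulated data. RPKM divides CPM by merged exon length. Retrocopies were matched with blastn 2.17.0 (E-value limit 1e-20, at least 50% covered). Alternatives were DESeq2 1.42.0, limma-voom (limma 3.58.1), other scalings, filters and fits, a replicate block, and each library left out. The count over the 18 enzymes under these alternatives was added after seeing the data.

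The sterol genes and the 6 lists were chosen with earlier results of these data known. All sterol genes are named. Values per library are given for those with an unadjusted p under 0.05, for regulators and their readouts, and for a few others chosen after their values were seen. List genes are named where the unadjusted p was under 0.05; the cleavage proteases, the oxysterol enzymes that were not tested and Rxra were added, Rxra after its values were seen.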

Additional observations from a re-analysis of the deposited data

How the results depend on the processing

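Over the 15 alternatives, 17 of the 28 tested sterol genes kept the sign of their log2 fold change, 15 of them below 0 and 2, Abca1 and Abcg1, above 0. Without a filter on low counts edgeR called 1 sterol gene, Abcg1 (log2 fold change 0.75), among 298 genes in all, and DESeq2 called 99 genes and 0 sterol genes, against 7 genes and 0 sterol genes in the reported fit; the cause was not tested. The other settings with all 6 libraries called 5 to 7 genes and 0 sterol genes. Leaving out a library gave 4 to 8 genes called, 0 sterol genes, 18 to 22 of 28 sterol genes below 0, 15 to 18 enzymes below 0 and a median over the sterol genes from -0.20 (without CD73 KO replicate 2) to -0.08 (without CD73 KO replicate 1), against -0.14 with all 6. With library size alone Nsdhl and Srebf1 turned to 0.0024 and 0.0017, and 20 of 28 sterol genes and 17 of 18 enzymes were below 0. Leaving out a library turned 11 sterol genes. Their ranges were -0.23 to 0.05 for Fdft1, -0.42 to 0.10 for Msmo1, -0.20 to 0.09 for Nsdhl, -0.16 to 0.13 for Hsd17b7, -0.19 to 0.05 for Sc5d, -0.12 to 0.05 for Srebf1, -0.14 to 0.35 for Insig1, -0.13 to 0.34 for Insig2, -0.21 to 0.09 for Stard4, -0.06 to 0.23 for Nr1h2 and -0.23 to 0.72 for Mylip. Genes that kept a negative sign ranged from -0.58 to -0.07 for Acat2, -0.48 to -0.04 for Hmgcs1, -0.40 to -0.25 for Mvk, -0.41 to -0.10 for Pmvk, -0.39 to -0.18 for Mvd, -0.46 to -0.14 for Idi1, -0.56 to -0.14 for Fdps, -0.44 to -0.08 for Sqle, -0.40 to -0.05 for Lss, -0.41 to -0.13 for Cyp51, -0.20 to -0.0035 for Tm7sf2, -0.27 to -0.13 for Ebp, -0.24 to -0.09 for Dhcr7, -0.22 to -0.07 for Srebf2 and -0.37 to -0.15 for Scap. Fits that left out a library moved Abcg1 from 0.34 to 0.93 and Abca1 from 0.23 to 1.28.

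Replicate numbers are shared by title only. Deviations of same-numbered libraries from their group means correlated at 0.155, -0.173 and 0.015, so the numbers were not taken to pair the libraries. With the replicate number as a block 5 genes and 0 sterol genes were called, 22 of 28 sterol genes and 18 of 18 enzymes were below 0 and the median of the sterol genes was -0.14. Each of the 3 CD73 KO libraries correlated best with a WT library of another number. Depth limits Abca1, at 2 to 34 counts per library, and Nr1h3, at 4 to 15 counts. Nr1h3 did not pass the filter with all 6 libraries, and where it passed with a library left out its log2 fold change was 0.17 to 0.66, with adjusted p from 0.754 to 0.999 in edgeR.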

Other observations

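Scd1, the desaturase that makes oleate, and Vldlr, a lipoprotein receptor, were named after their values were seen, since both differed more between libraries of a genotype than between genotypes. Scd1 had 70.8, 165.9 and 64.2 CPM in CD73 KO, against 72.7, 111.8 and 170.3 CPM in WT. Vldlr had 0.904, 5.22 and 0.385 CPM in CD73 KO, against 0.0778, 0.107 and 3.99 CPM in WT. Its counts were 17, 79 and 4 in CD73 KO and 1, 1 and 28 in WT, so its low values rest on few reads. Scd1 and Vldlr were both high in CD73 KO replicate 2 and WT replicate 3. Over all tested genes, the deviations of these libraries from their group means correlated at 0.362, the highest of the 9 pairs of a CD73 KO and a WT library. Deviations within a genotype sum to 0, so some of the pairs correlate above 0 by construction. Whether these libraries share a state was not tested.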
